A study of Schizosaccharomyces japonicus with 6 samples.

Results

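Tj6 is one of the long terminal repeat (LTR) retrotransposon families of the fission yeast *S. japonicus*. Its members were taken by name, as all loci of the authors' deposited table whose ID begins with Tj6 followed by a dash or a low line. This gave 27 of the 5152 loci in the table, among 266 loci of the families Tj1 to Tj10. By the names, 2 are full-length elements, 22 are partial elements and 3 are solo LTRs. All 27 had a position in the element list of the study, on 8 contigs of the SJ5 assembly. Polyadenylated RNA was sequenced from cultures at 32 °C of a wild-type strain and of dcr1Δ*, with 3 libraries of each. Both strains are of mating type h- and carry mat-P2028, ura4-D3 and ade6(sj)-domE. The dcr1Δ* strain also carries the disruption dcr1-dis::natMX6 and the missense allele mpe1-R77W, which cannot be told apart in it, and it is 1 rare viable isolate. The value used for each locus is the authors' average over all 6 libraries, as log2 of counts-per-million (CPM), which scale each count by the total of its library. It holds both strains together and leans towards the strain with more reads of a locus, so the levels below do not compare wild-type with dcr1Δ* cells. No spread between libraries can be given for it, and no 2 levels were tested against each other.

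An LTR retrotransposon is flanked by direct repeats and copies itself through an RNA intermediate. A full-length copy encodes the Gag and Pol proteins needed for this cycle, a partial copy has lost some of the sequence, and a solo LTR is what remains after the repeats of a copy recombine with each other. Tj6 belongs to the Ty3/Gypsy group and, with Tj1 and Tj4, to the lineage related to the Tf1 and Tf2 elements of *S. pombe*. Small RNAs made by Dicer from repeat transcripts can guide the destruction of such transcripts or, as is well known in *S. pombe*, the methylation of histone H3 on lysine 9.

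Tj6 transcripts were unevenly spread over the family. Loci without reads share the lowest value of the table, 0.0628 CPM, which in the authors' edgeR output comes from a small count added to every library. With that value subtracted at each locus, the 27 Tj6 loci summed to 996 CPM, or 0.0994% of all counts. Of this total, 81.8% fell on 3 partial elements of supercont5.1, and these 3 hold 24.1% of the length of the family. The 5 highest loci held 91.0%. The median Tj6 locus stood at a log2 CPM of 0.72, and the values ran from −3.99 to 8.36. The median of the 4886 loci outside Tj1 to Tj10 was 6.03, and 3 Tj6 loci were above it.

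In the descriptions that follow, a partial element is named by the number at the end of its ID, in which the part before the point is the contig. The highest member was partial 1.2, on the plus strand of supercont5.1 from 1825789 to 1828782, with a mean level of 329 CPM. Partial 1.1, on the minus strand from 1838046 to 1841058, had a mean of 304 CPM. Partial 1.3, on the plus strand from 1844491 to 1847040, had a mean of 182 CPM. These elements were in places 3, 4 and 5 of the 266 Tj1 to Tj10 loci by level and in places 4, 5 and 7 by level per kb, and between 80.1% and 88.9% of all loci in the table had a lower CPM.

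The next members lay on other contigs. Partial 15.1, on the plus strand of supercont5.15 from 4 to 1033, had a mean of 49.9 CPM although it is only 1030 bases long. It starts at the end of the contig, so the assembly may hold only part of the copy. Partial 6.1, on the minus strand of supercont5.6 from 69842 to 74816, had a mean of 42.0 CPM. It is 4975 bases long, close to the length of the full-length copies, and is named partial in the element list.

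Both full-length copies lie on the plus strand of supercont5.4, and both were in the upper part of the family. Tj6-2, from 75171 to 80201, had a log2 CPM of 4.06, or 16.7 CPM. Tj6-1, from 133352 to 138381, had a log2 CPM of 3.81, or 14.0 CPM. The copies differ by 1 base in length, at 5031 and 5030 bases. Together they make up 28.3% of the length of Tj6 but held 3.06% of its level.

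The solo LTRs were at or near the level of loci without reads. Tj6-type_LTR-2.1, on supercont5.2 from 971022 to 971140, was at the lowest value of the table, which 15 loci share. Tj6-type_LTR-2.2, on supercont5.2 from 1048090 to 1048208, and Tj6-type_LTR-1.1, on supercont5.1 from 1226726 to 1226861, each had a log2 CPM of −2.72. If the count added by the authors' edgeR run was its default of 2, this is 2.84 reads in an average library, and all 3 solo LTRs were under the level of 3 counts, 0.157 CPM. All 24 other members were above it. The lowest of these was partial 12.1, on supercont5.12 from 7012 to 7746, at 0.236 CPM.

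**Figure D1:**
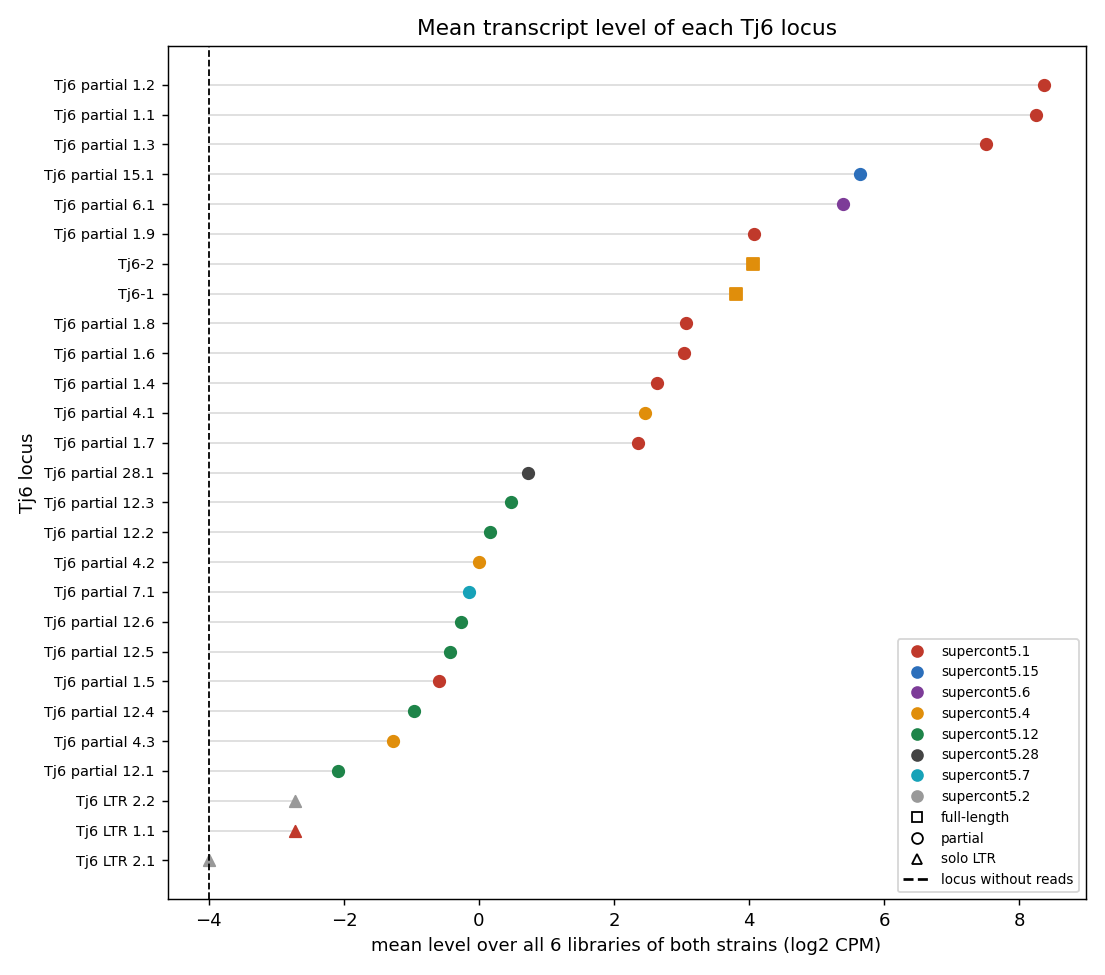
Mean level of each of the 27 Tj6 loci, as log2 CPM averaged by the authors over the 6 libraries of both strains, with 1 point per locus, colour for the contig and shape for the element type. The dashed line is the level of loci without reads; the 3 highest points, from 7.51 to 8.36, are partial elements of supercont5.1, and the 3 solo LTRs are the lowest.

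Longer loci collect more reads, so Tj6 loci are also compared per kilobase. In this measure, the level less that of loci without reads was divided by the length of the locus. The family as a whole had 28.0 CPM per kb, and the median locus had 3.30 CPM per kb. Partial 1.2 remained the highest at 110 CPM per kb, followed by partial 1.1 at 101, partial 1.3 at 71.3, partial 15.1 at 48.4 and partial 1.9 at 34.6 CPM per kb. The full-length copies Tj6-2 and Tj6-1 had 3.30 and 2.77 CPM per kb, so the mean level per kb of partial 1.2 was 33.3 and 39.7 times theirs. Partial 6.1, nearly as long as they are, had 8.42 CPM per kb. Length therefore went with level only in part. Across the 27 loci, log2 CPM and log2 length had a Pearson r of 0.79 and a Spearman rho of 0.76, given as a description because the loci share libraries and split reads.

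Loci of similar length differed widely. Of the 5 pieces of supercont5.1 between 482 and 596 bases long, partial 1.9 had 34.6 CPM per kb, partial 1.8 had 16.4, partial 1.6 had 15.8 and partial 1.7 had 9.85 CPM per kb. Partial 1.5, the longest of the 5, had 1.00 CPM per kb and lies apart from the others, from 1858434 to 1859029. Among loci over 1000 bases, partial 4.2, on supercont5.4 from 147375 to 148991, had 0.580 CPM per kb, below the median of the shorter members. On the same contig and strand, partial 4.1, from 143217 to 145268, had 2.65 CPM per kb, near the values of the full-length copies there. Partial 4.3 (239 bases, from 83354 to 83592) had 1.46 CPM per kb and a mean of 0.412 CPM. The shortest partial element, 7.1, on supercont5.7 from 2722 to 2894, has 173 bases and had 4.85 CPM per kb, above both full-length copies.

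**Figure D2:**
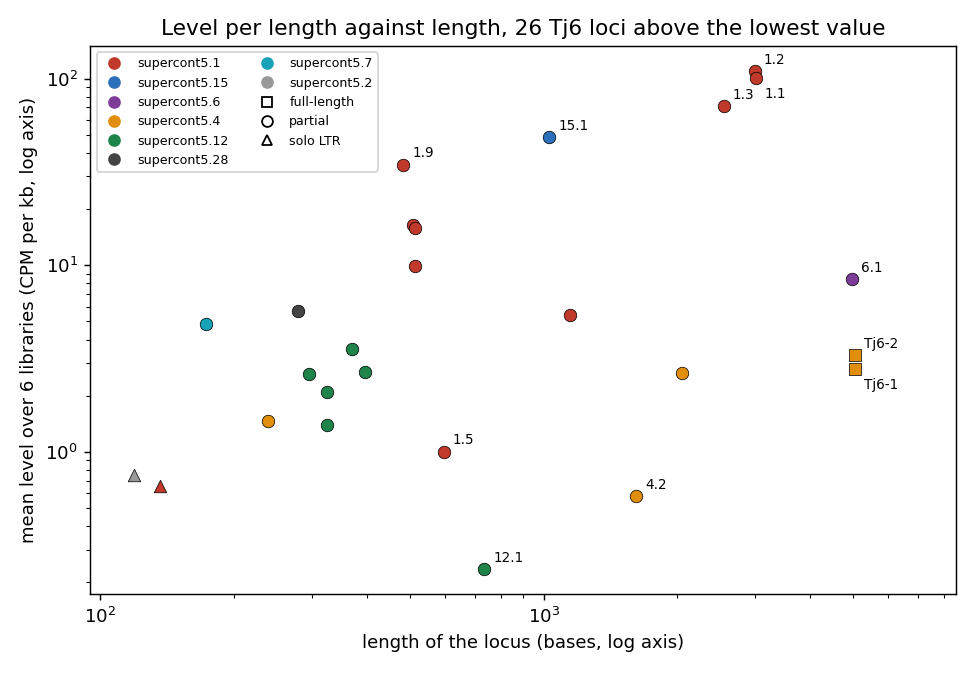
Mean level per kb, in CPM over the 6 libraries of both strains on a log axis, against the length of the locus in bases on a log axis, for the 26 Tj6 loci above the lowest value. Points are loci, with colour for the contig and shape for the element type; partials 1.1, 1.2 and 1.3 lie above 70 CPM per kb, while the longer full-length copies Tj6-1 and Tj6-2 lie near 3.

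Levels per kb differed by contig. The 10 loci of supercont5.1 held 86.4% of the Tj6 level on 35.0% of its length, and the 9 partial elements among them had a pooled 69.9 CPM per kb. The 13 partial elements elsewhere had a pooled 8.23 CPM per kb. Of the 7 Tj6 loci over 10 CPM per kb, 6 were on supercont5.1, and the other was partial 15.1. On supercont5.4, which holds the greatest length of Tj6, the 5 loci had a pooled 2.67 CPM per kb. The 6 pieces of supercont5.12 had 1.82 CPM per kb. A read that maps to several places was split among them in the authors' counting, so loci of near-identical sequence share counts, and a level need not arise wholly at the locus it is given to. Reads from copies that the assembly lacks fall on the copies it has. Annotated genes were not placed, so it is not known whether any of them overlaps a Tj6 locus. How reads shared with such a gene were counted is not known either. These limits hold for all levels per kb given here, also those of the full-length copies. How far these moved the values was not tested.

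The partial elements of supercont5.1 form an array of 33.9 kb, from 1825097 to 1859029, of which Tj6 covers 36.3%. In 3 places of this array a solo LTR of Tj7, another LTR retrotransposon family, lies between Tj6 pieces of the same strand. The pieces were not aligned, so whether they were once a single copy was not tested. On the plus strand, partial 1.9 (482 bases) is followed directly by Tj7-type_LTR-1.4 (211 bases) and then by partial 1.2 (2994 bases), whose listed position overlaps that of the LTR by 1 base. On the minus strand, partial 1.7 (512 bases), Tj7-type_LTR-1.1 (212 bases) and partial 1.1 (3013 bases) follow each other in the same way. The other case, also on the minus strand, is partial 1.6 (514 bases), Tj7-type_LTR-1.2 (212 bases) and, after 50 bases, partial 1.4 (1146 bases). In each case the short Tj6 piece is upstream of the LTR, and all 3 parts lie on 1 strand. These stretches span 3686, 3736 and 1922 bases, each shorter than a full-length copy.

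The pieces on the 2 sides of an LTR did not have the same level per kb. Partial 1.2, downstream of its LTR, had 3.17 times the level per kb of partial 1.9, and partial 1.1 had 10.3 times that of partial 1.7. In that other case the order was the reverse, with 5.40 CPM per kb for partial 1.4 and 15.8 for partial 1.6. The LTRs between them were given levels as well. These may include split reads that also map to other Tj7 copies. How far such reads, or fragments that cross into a Tj6 piece, moved the levels was not tested. Tj7-type_LTR-1.4 had 26.6 CPM per kb and Tj7-type_LTR-1.1 had 18.5 CPM per kb, and in both cases this was below the long Tj6 piece beside it. Tj7-type_LTR-1.2 had 15.98 CPM per kb, above partial 1.4, its long piece, and close to partial 1.6.

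The first of these stretches has its mirror image in the second, by order, strand and length of the elements. Reading inwards from both sides, 7 elements of supercont5.1 follow in the same order and on opposite strands. They are a Tj1 solo LTR, a short Tj6 piece, a Tj7 solo LTR, a long Tj6 piece, a Tj19 piece and then a pair of Tj7 pieces. The arms are 6980 and 6948 bases long, run from 1824730 to 1842117 and are 3460 bases apart. Members of a pair differ by at most 44 bases in length. Between the arms lie only partial 1.8, on the plus strand from 1832964 to 1833470, and a Tj10 piece that begins where it ends. This run was looked for after the positions had been seen.

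Levels were close for the long Tj6 pieces of the arms and apart for the short ones. Partial 1.2 had 1.09 times the level per kb of partial 1.1, its mirror partner. Partial 1.9 had 3.52 times that of its partner partial 1.7. The other pairs with values, left arm first, went in both directions. The Tj1 solo LTRs had 6.78 and 11.98 CPM per kb, and the Tj7 solo LTRs had 26.6 and 18.5 CPM per kb. The short Tj7 pieces had 17.2 and 0.0102 CPM per kb. The lower of these has a log2 CPM of −3.95, next to the −3.99 of loci without reads. The long Tj7 pieces had 6.62 and 18.5 CPM per kb. Partial 1.3, the other long piece, lies outside the arms and had 71.3 CPM per kb, so that partial 1.2 was 1.54 times higher. With no values per library, none of these differences can be set against the spread between replicates. Any read that maps to both members of a pair was split between them, so their levels are not separate measurements. How far this moved the ratios was not tested.

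**Figure D3:**
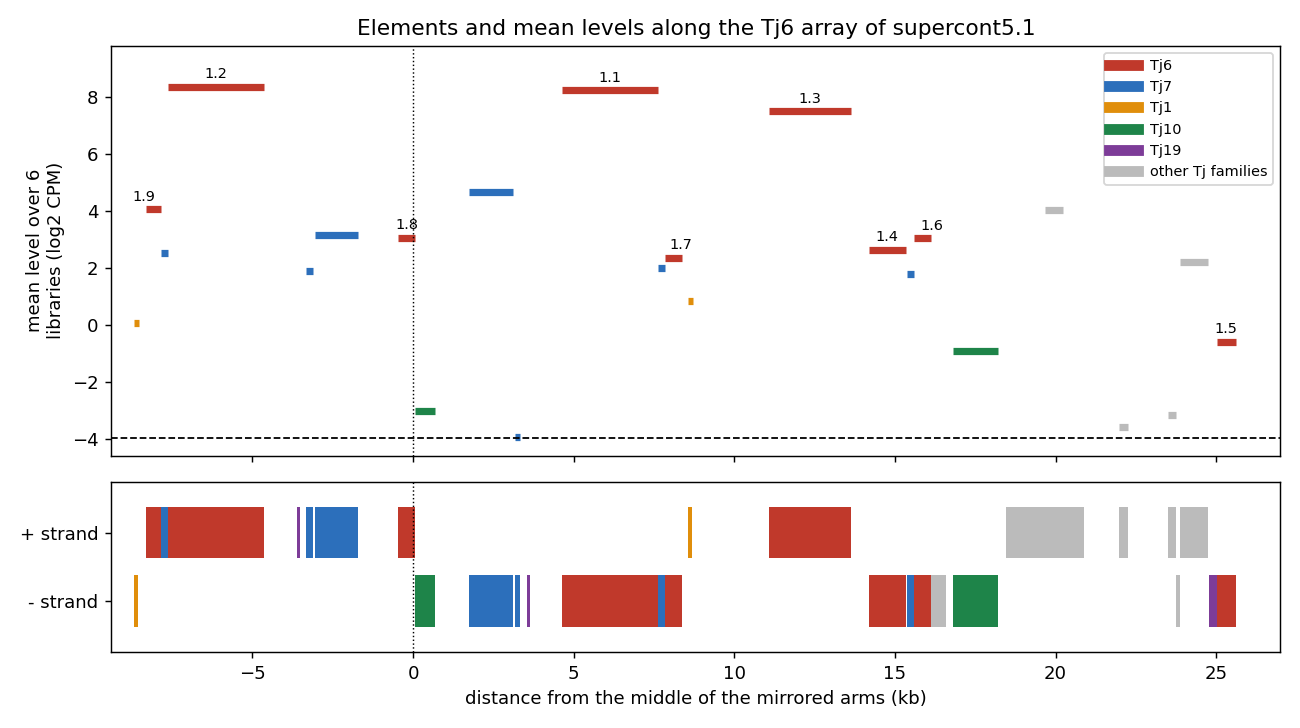
The Tj6 array of supercont5.1, with distance in kb from the middle of the mirrored arms (dotted line). Above, each horizontal bar is a locus at its mean log2 CPM over the 6 libraries of both strains, coloured by family and numbered for Tj6, and the dashed line is the level of loci without reads. Below, all Tj1 to Tj21 elements by strand, including those of Tj11 to Tj21, which have no value above; partials 1.2, 1.1 and 1.3 stand above all others.

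On supercont5.28 and supercont5.12, Tj6 loci also lie among Tj7 elements. On supercont5.28, partial 28.1 (279 bases, 1.65 CPM) has a Tj7 piece 125 bases downstream on its own strand and a Tj1 solo LTR 283 bases away on its other side. That LTR has 144 bases, as both Tj1 LTRs of the mirrored arms do. On supercont5.12, Tj6 stretches and Tj7 solo LTRs alternate, but on opposite strands and with 687 to 2062 bases between neighbours. The Tj6 stretches there are 692, 710, 735 and 324 bases long. Their starts are 3650, 3354 and 4810 bases apart, and those of the Tj7 LTRs are 3697 and 3651 bases apart. The first stretch is listed as partials 12.3 and 12.4, which overlap by 2 bases, and the second as partials 12.2 and 12.6, which are 19 bases apart. Levels on this contig were low, from 0.236 CPM for partial 12.1 to 1.38 CPM for partial 12.3. The joined partials 12.2 and 12.6 had 2.67 and 2.62 CPM per kb, and the joined partials 12.3 and 12.4 had 3.57 and 1.40 CPM per kb. Partial 12.5, the last stretch, had 2.10 CPM per kb. Partial 12.1, the longest single piece there, had 0.235 CPM per kb, below the values of both solo LTRs that were above the lowest value of the table.

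A Tj7 element lay within 300 bases of 7 Tj6 loci, which is 25.9% of them (Wilson 95% interval, 13.2% to 44.7%). For the 217 loci of Tj1 to Tj5 and Tj8 to Tj10 the share was 0.922%, from 2 loci. Shares for other neighbours differed too, against loci of neither Tj6 nor the neighbour's family. A Tj1 element lay within 300 bases of 11.1% of Tj6 loci, against 0.435%. The order was the reverse for Tj8 (0% against 13.6%), Tj5 (0% against 12.9%) and Tj9 (3.70% against 16.5%). The 7 Tj6 loci near a Tj7 element are partials 1.1, 1.2, 1.4, 1.6, 1.7, 1.9 and 28.1. Partials 1.9 and 1.2, partials 1.7 and 1.1, and partials 1.6 and 1.4 each lie on both sides of a single Tj7 solo LTR. In addition, 4 of the 7 belong to the mirrored arms. They are therefore not independent cases, though the interval counts them as such, and it covers counting error only. The 7 loci held 67.4% of the Tj6 level, with 33.0% on partial 1.2 and 30.5% on partial 1.1. Their median was 15.8 CPM per kb, and that of the other 20 members was 2.64. All of the 7 but partial 28.1 lie on supercont5.1, so this contrast largely repeats that between contigs. On that contig, partials 1.3, 1.8 and 1.5 have no Tj7 element within 300 bases. They had 71.3, 16.4 and 1.00 CPM per kb, and partial 1.3 was in place 3 of the family by level.

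Most Tj6 loci lay near some other element. Of the 27, 17 had an element of Tj1 to Tj21, Tj6 included, within 300 bases and 12 touched one or lay 1 base away. For partials 12.2, 12.3, 12.4 and 12.6, the only element within 300 bases was another Tj6 piece of the same stretch. The same counts were not made for the other families, so they describe Tj6 alone. Tj6-2 and partial 6.1 each directly adjoin a Tj12 piece on the opposite strand. Tj6-1 has no such neighbour, the nearest being a Tj17 piece 722 bases away. The solo LTRs lay far from all other elements. The nearest element to Tj6-type_LTR-1.1 was 546001 bases away, that to Tj6-type_LTR-2.1 was 5249 bases away and that to Tj6-type_LTR-2.2 was 16913 bases away.

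Among the 10 families, Tj6 was in place 2 by total mean level. Tj7 held 62.1% of the Tj1 to Tj10 level, Tj6 15.3% and Tj9 9.19%, on 4.49%, 11.5% and 20.6% of the summed length. It was also in place 2 by pooled level per kb, at 28.0 CPM per kb against 293 for Tj7 and 17.1 for Tj2. By the median locus it was in place 3, with a log2 CPM of 0.72 against 1.43 for Tj9 and 0.98 for Tj7. By the median level per kb it was in place 4, at 3.30 CPM per kb against 6.29 for Tj7, 3.69 for Tj2 and 3.47 for Tj9. The highest Tj6 locus held 33.0% of the level of its family, and the highest Tj7 locus 71.9%. This share was lower than in Tj6 for Tj9 (11.1%), Tj3 (23.4%), Tj4 (24.0%), Tj8 (28.6%) and Tj5 (32.9%). It was also higher than in Tj6 for Tj10 (34.1%), Tj1 (38.4%) and Tj2 (41.5%). The full-length Tj6 copies were in places 5 and 7 of the 13 full-length elements by level per kb. Of these, Tj2-1 had 22.7, and all 3 full-length Tj9 elements had more than 6 CPM per kb. The families share split reads within themselves and were not tested against each other. Lengths are those of the assembly. The paper reports from qPCR that Tj7 rose in copy number in dcr1Δ* cells and that the other families tested did not. How far this moved the shares and levels per kb was not tested.

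**Figure D4:**
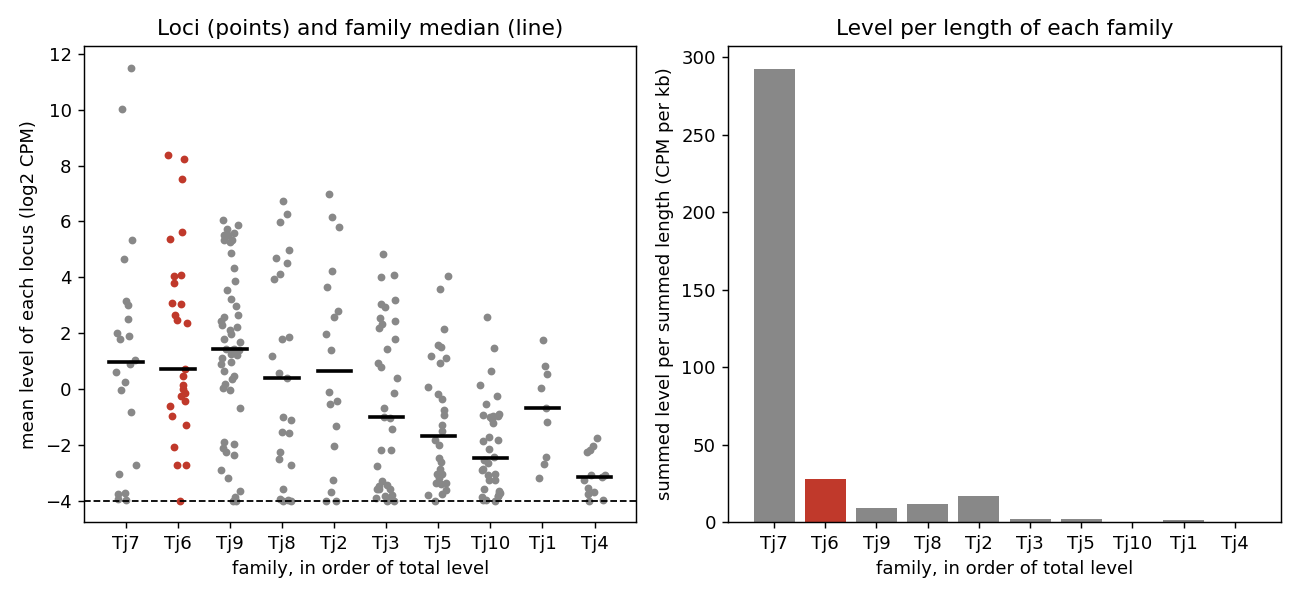
Left, mean log2 CPM over the 6 libraries for each locus (points) and the family median (line), with families in order of total level and the dashed line at the level of loci without reads. Right, summed level divided by summed length of each family, in CPM per kb on a linear axis; Tj6 (red) has 28.0 and Tj7 has 293.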

How the data were processed

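The authors trimmed reads (Trim Galore 0.4.3.1), aligned them to SJ5 (STAR 2.7.2b), counted them with featureCounts, splitting multiply mapped reads into fractions, and compared strains in edgeR. Per the submitters' processing notes the authors used featureCounts 2.0.1 and edgeR 3.34.0, but the study's methods name other versions. The strand setting is not given in the sources used here. The deposited table holds an average log2 CPM over the 6 libraries, which was used. It also holds the fold change, F statistic, p-value and FDR of the authors' own comparison, which were not used, so strains were not compared and nothing was tested. Library totals are not known. With an assumed prior count of 2, the lowest value stands for an average library of about 31800000 counts.

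Positions come from the study's element list (396 elements of 21 families). Its starts were read as counted from 0, since 5 of them are 0, and are printed counted from 1. RefSeq genes of SJ5 were not placed, as that annotation names no contig. Pieces were joined on 1 strand across at most 300 bases. Members, lists and measures were chosen with earlier results of these data known. All members could be named. Elements of other families were named where they touch Tj6 loci or for comparison, and the full-length elements Tj2-1 and those of Tj9 were chosen after their values were seen. Alternatives changed the subtraction, the low-level filter, the length limit and the distances. Functions were tested on simulated data. Python 3.11.15, numpy 2.4.6, pandas 2.3.3, scipy 1.17.1 and matplotlib 3.10.9 were used.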

Additional observations from a re-analysis of the deposited data

How the results depend on the processing

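Without subtracting the level of loci without reads, the Tj6 total was 998 CPM, the share on supercont5.1 86.3%, the share on the 3 highest loci 81.7% and the median level per kb 3.31 CPM. Leaving out the solo LTRs, or the loci under 3 counts, which are the same 3 loci, moved the median log2 CPM from 0.72 to 2.41. The second of these brought the Spearman rho of level and length to 0.67, and leaving out supercont5.1 brought it to 0.75. With levels per kb in place of levels, supercont5.1 held 80.0% and the 3 highest loci 61.7%. Among loci of 500 bases or more the median was 8.42 CPM per kb. Within 100 bases, 2 pairs of Tj6 pieces were joined in place of 5, because the other 3 have a Tj7 LTR between them. Tj6 was in place 3 of the families by median level and in place 4 by median level per kb, and in place 2 without the highest locus of each family. The place by total level rests on the 3 highest Tj6 loci. Without them Tj6 summed to 181 CPM, with the other families left whole. This is below Tj9 (600 CPM), Tj8 (372 CPM) and Tj2 (307 CPM) and above Tj3 (121 CPM). Setting 3 counts without the prior count, an alternative chosen after seeing the data, put 26 loci above it in place of 24. No library could be left out, and no paired analysis was possible because the deposited values are averages over all libraries. Depth per library is unknown, and levels near that of loci without reads rest on a few reads.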
